A study of Rattus norvegicus with 13 samples.

Results

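The genes described here encode chiefly the chemokines, the interleukins and their receptors, as measured in mammary epithelial cells of Wistar-Furth rats, a strain susceptible to mammary cancer. They were chosen by symbol alone. Numbered chemokines (*Cxcl*, *Ccl* or *Cx3cl1*), chemokine receptors (*Cxcr*, *Ccr*, *Ccrl*, *Ackr* or *Cx3cr1*) and symbols made of *Il* and a number, with or without a suffix, were taken. The last kind includes genes such as *Il18bp* and *Il4i1*, which encode neither an interleukin nor a receptor. The rule gave 87 of 14790 genes. RNA-seq libraries, each from its own animal, came from 6 rats aged 6 weeks and 7 rats aged 10 weeks, which the study places within and outside its window of susceptibility (WOS), and no treatment or engineered allele is named for either age. The cells were ductal fragments from collagenase-digested mammary glands, collected by differential centrifugation. The study describes them as mostly epithelial, with fibroblasts and immune cells among them. Levels are the authors' scaled and rounded counts, called normalized counts, and cannot be compared between genes because they are not divided by gene length. Differences are log2 fold changes of the normalized count plus 1, at 6 weeks over 10 weeks, so that a value above 0 is higher within WOS and the change of genes with low counts is understated. SE stands for the standard error of that difference.

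Chemokines are small secreted proteins that guide the movement of cells, above all leukocytes, along their gradient. They bind receptors that signal through inhibitory G proteins, while atypical receptors take up the ligand without that signal. Interleukins are secreted messengers that act through several kinds of receptor, namely the IL-1 receptor family, which uses MyD88 and NF-kB, the IL-17 receptors, and the cytokine receptors that use JAK kinases and STAT factors. In the mammary gland, epithelial cells, fibroblasts and resident macrophages all make such signals, and macrophages and other leukocytes take part in the growth of the ducts at puberty.

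The normalized counts of a rat summed to between 13261906 and 15659533 at 6 weeks and between 13766735 and 15402814 at 10 weeks. In 7 of 13 rats, 2 at 6 weeks and 5 at 10 weeks, some whole numbers from 1 to 30 never occurred, so low values there moved in steps of more than 1. Of the 87 genes, 18 had a mean normalized count under 20, 5 were at 0 in at least 1 rat and 17 had a mean of at least 1000. All 87 passed the minimum mean of 1. Rats 75 and 80 at 6 weeks and rats 78, 81 and 83 at 10 weeks stood apart from the other 8 rats in the variation left within the ages, and no label names that split, so the values of called genes, and of those near the threshold, are also given for those 8 rats.

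The table held luminal and basal epithelial markers in every rat. The summed normalized count of 7 luminal markers was 21082 to 38931 at 6 weeks and 28739 to 45904 at 10 weeks, and that of 5 basal markers was 16375 to 25412 and 22875 to 28492. Of these 12 markers, *Epcam* was called, with a log2 fold change of -0.39 (adjusted p = 0.0454, limma), and it was called in 0 of 13 fits that left out 1 rat. RNA of other cell types was present too, and its values stand beside the results they touch.

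In all, 12 of the 87 genes (13.8%) were higher at 6 weeks at an adjusted p under 0.05 in limma, where 8.71% of all 14790 genes were, and 9 (10.3%) were higher at 10 weeks, where 7.39% of all genes were. The 12 genes higher within WOS were *Cxcl3*, *Cxcl9*, *Cxcl10*, *Cxcl11*, *Ccl2*, *Ccl27*, *Cxcr4*, *Ackr3*, *Il18r1*, *Il11*, *Il11ra1* and *Il17b*. The 9 genes higher outside WOS were *Cxcl14*, *Cxcl16*, *Il1rn*, *Il1rapl1*, *Il7r*, *Il21r*, *Il12rb2*, *Il17ra* and *Il17rb*. The other 66 genes did not pass, 7 of them with an unadjusted p under 0.05. In 7 genes (8.05%) the ages did not overlap, as in 6.07% of all genes. These were *Cxcl3*, *Cxcl9*, *Cxcl10*, *Cxcl11* and *Cxcr4*, higher at 6 weeks like 3.29% of all genes, and *Il1rn* and *Il1rapl1*, higher at 10 weeks like 2.78%. The median log2 fold change of the 87 genes was 0.07, and that of all genes 0.03. Library size scaling left 5 genes higher at 10 weeks and sample quality weights gave 15, and the shares over all genes were not worked out for these settings. In bulk RNA, more cells of a type and more RNA per cell cannot be told apart, and this holds for every difference below.

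**Figure D1:**
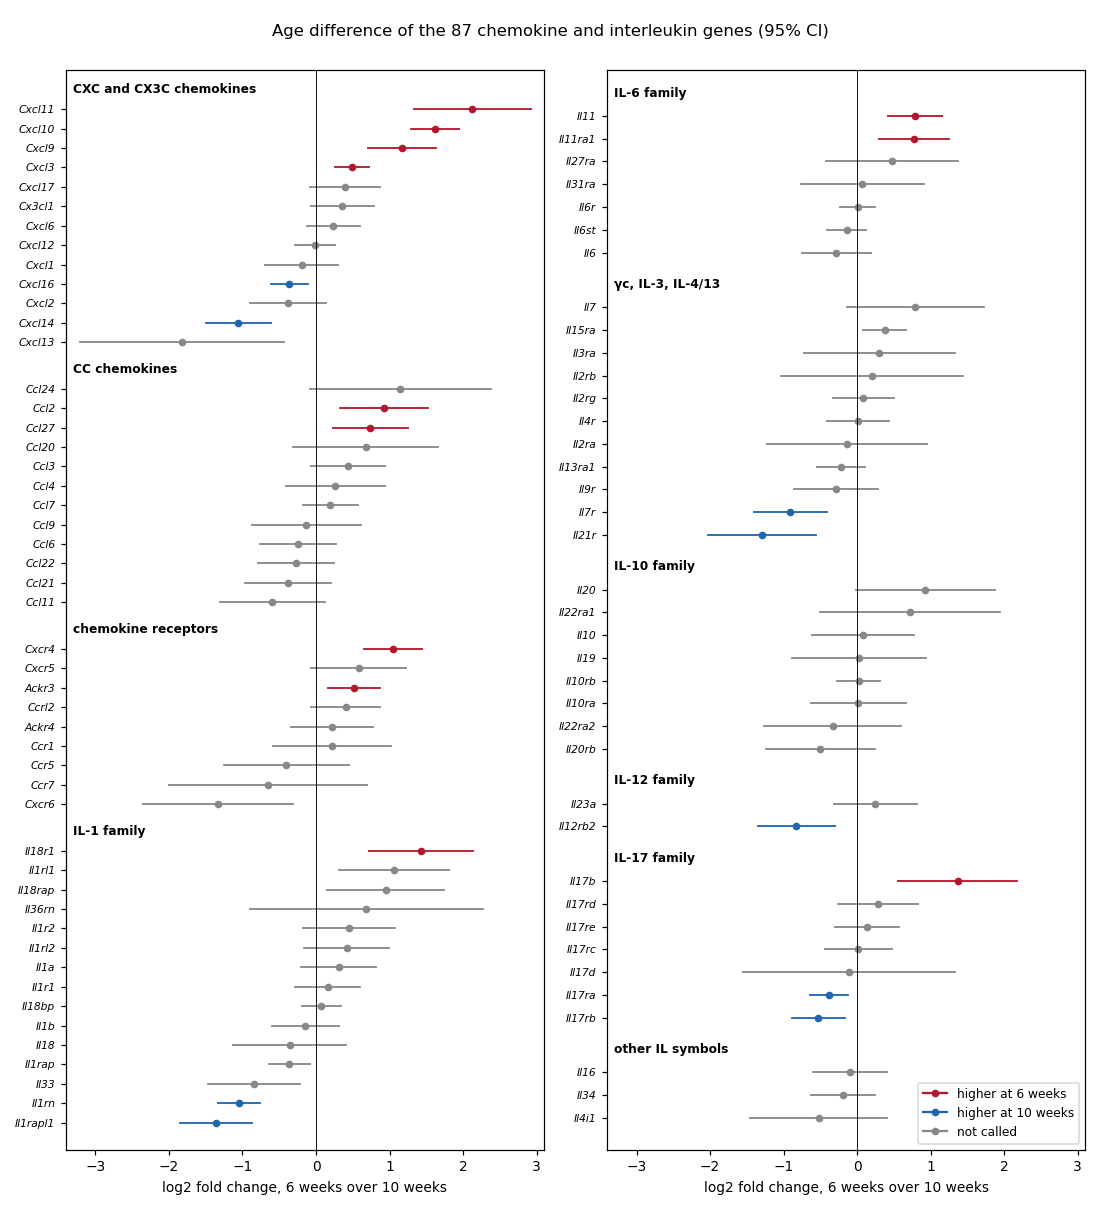
Log2 fold change at 6 weeks over 10 weeks (x axis) for each of the 87 genes (rows, grouped by role), with points for the estimate and lines for its 95% confidence interval. Red marks the 12 genes higher at 6 weeks, blue the 9 higher at 10 weeks and grey the 66 not called, and the red points reach 2.12 for *Cxcl11*.

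The largest difference among the 87 genes lay in the ligands of the receptor CXCR3. *Cxcl9*, *Cxcl10* and *Cxcl11* are adjacent genes on chromosome 14, known to be induced by interferons, and they draw activated T cells and natural killer cells. Because they were higher together, the 250 bases before the start of each are shown from RefSeq (build GRCr8, forward strand). They lie at chr14:16006916-16007165 for *Cxcl9*, chr14:15988816-15989065 for *Cxcl10* and chr14:15973478-15973727 for *Cxcl11*. Capitals mark matches, on either strand, to the core of an interferon-stimulated response element, searched as GAAA, any 2 bases and GAAA again, or to the NF-kB consensus:
Cxcl9: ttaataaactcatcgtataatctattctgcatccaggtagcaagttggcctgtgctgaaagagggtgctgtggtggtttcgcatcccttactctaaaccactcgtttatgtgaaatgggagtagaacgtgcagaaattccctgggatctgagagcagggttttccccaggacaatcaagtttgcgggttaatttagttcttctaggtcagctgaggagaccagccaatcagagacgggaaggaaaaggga
Cxcl10: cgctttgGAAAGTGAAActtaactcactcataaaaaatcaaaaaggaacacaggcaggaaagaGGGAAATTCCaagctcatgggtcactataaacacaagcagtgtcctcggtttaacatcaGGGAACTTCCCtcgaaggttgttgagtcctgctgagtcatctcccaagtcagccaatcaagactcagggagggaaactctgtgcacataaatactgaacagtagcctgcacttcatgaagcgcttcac
Cxcl11: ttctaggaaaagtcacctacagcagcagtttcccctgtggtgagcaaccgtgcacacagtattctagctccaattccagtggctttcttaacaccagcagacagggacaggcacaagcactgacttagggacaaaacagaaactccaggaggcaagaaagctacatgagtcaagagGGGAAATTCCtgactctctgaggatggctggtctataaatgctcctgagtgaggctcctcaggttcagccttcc

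The *Cxcl10* sequence holds the GAAA repeat from base -243 and NF-kB matches from bases -187 and -128, counted back from the start. The match at -128 overlaps another on the opposite strand by all but 1 base at each end. The *Cxcl11* sequence holds 1 NF-kB match, from base -74, and the *Cxcl9* window holds neither string of letters. Over 300-base windows that also take in 50 bases from the start on, the GAAA repeat was found in 1034 of 27457 rat promoters (3.77%) and in 5 of the 68 of the 87 genes that have a promoter in the RefSeq table (7.35%). The NF-kB consensus was found in 2087 of all promoters (7.6%) and in 17 of the 68 (25.0%). By call, it was in 2 of 9 genes higher at 6 weeks, in 1 of 8 higher at 10 weeks, *Il12rb2*, and in 14 of 51 not called, *Cxcl1*, *Cxcl2* and *Cxcl6* among them. A match is a string of letters and does not show that a factor binds there.

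The lowest, median and highest normalized counts of *Cxcl10* (ENSRNOG00000022256) were 1124, 1713 and 1862 at 6 weeks and 418, 549 and 661 at 10 weeks. All 6 rats within WOS lay above all 7 rats outside WOS, and rat 75 was the lowest of its age. This gave a log2 fold change of 1.62 (SE 0.15, adjusted p = 9.03e-05), a fold of 3.08. *Cxcl11* (ENSRNOG00000022298) had 64, 93 and 171 at 6 weeks against 8, 23 and 51 at 10 weeks. Again no rats overlapped, with rat 86 highest within WOS and rat 72 highest outside it. For *Cxcl11* the log2 fold change came to 2.12 (SE 0.37, adjusted p = 0.00254). *Cxcl9* (ENSRNOG00000022242) had 871, 1217.5 and 1824 against 400, 451 and 824, with a log2 fold change of 1.17 (SE 0.22, adjusted p = 0.00355). Its ages came close without overlapping, since rat 84 at 871 and rat 70 at 889 were just above rat 72 at 824. In the 8 rats the log2 fold changes were 1.76, 1.72 and 1.04 for *Cxcl10*, *Cxcl11* and *Cxcl9*, with adjusted p of 0.000359, 0.0131 and 0.0468.

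Their receptor gene *Cxcr3* was not analysed here. *Stat2*, a signal transducer of the response to type I interferon, had 575, 618 and 635 at 6 weeks against 361, 399 and 448 at 10 weeks (log2 fold change 0.60, SE 0.09, adjusted p = 0.000784). The ages did not overlap. Of the JAK kinase genes, *Jak1* and *Tyk2* were not called (log2 fold changes -0.26 and 0.27, adjusted p = 0.0996 and 0.36). The NF-kB gene *Nfkb1* was higher at 10 weeks (-0.50, adjusted p = 0.00779). The other NF-kB genes *Nfkb2*, *Rel*, *Rela* and *Relb* were not called (-0.16, -0.30, 0.03 and -0.20, adjusted p = 0.566, 0.0871, 0.924 and 0.565). The part of these pathways in the chemokine values was not tested. The spans of *Cxcl10* and *Cxcl11* overlap that of *Art3* in the RefSeq annotation, and *Art3* had a log2 fold change of 0.53 (SE 0.35, adjusted p = 0.329). Macrophage markers, which mark a cell type that makes these chemokines, numbered 0 of 9 called, with a summed level of 1412 to 2579 at 6 weeks and 1194 to 2752 at 10 weeks. Markers of other cells did move in the same direction as these chemokines, since 3 of 6 fibroblast markers and 6 of 7 mast cell markers were higher at 6 weeks. Fibroblasts can make these chemokines too. The summed levels at 6 and 10 weeks were 105605 to 221205 and 18981 to 54962 for the fibroblast list, and 1858 to 2906 and 1523 to 3780 for the mast cell list, and both lists are described by gene below. The part of these cell types in the chemokine values was not tested.

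**Figure D2:**
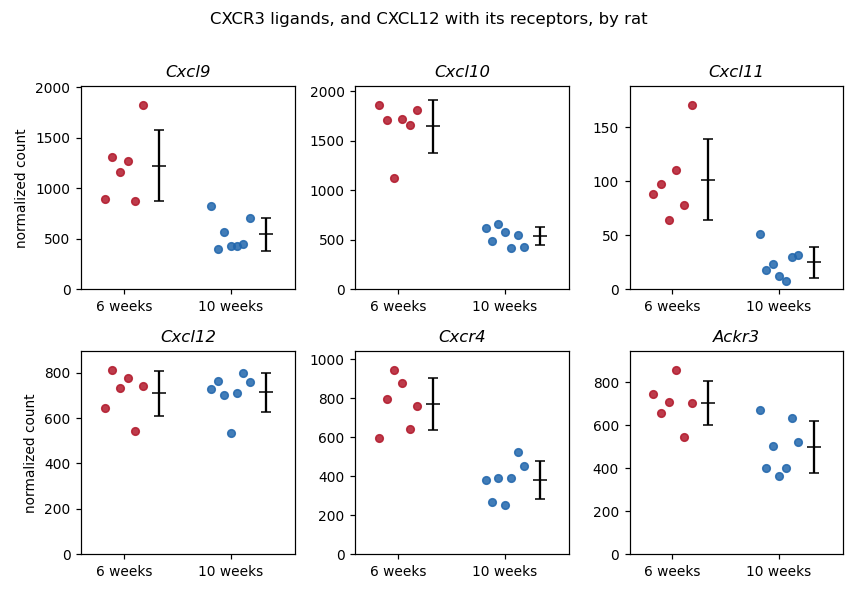
Normalized count (y axis, linear from 0) in each of 6 rats at 6 weeks (red points) and 7 rats at 10 weeks (blue points) for the CXCR3 ligands *Cxcl9*, *Cxcl10* and *Cxcl11*, and for *Cxcl12* with its receptors *Cxcr4* and *Ackr3*. Black bars are the mean and SD of each age. The ages do not overlap for the CXCR3 ligands and *Cxcr4*, overlap in part for *Ackr3* and cover nearly the same range for *Cxcl12*.

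CXCL12 is a chemokine of stromal cells, CXCR4 its signalling receptor, and ACKR3 an atypical receptor that binds and removes it. The receptors were higher at 6 weeks, whereas the ligand showed no difference of that size. *Cxcr4* (ENSRNOG00000003866) had a lowest, median and highest normalized count of 597, 778 and 945 at 6 weeks against 251, 391 and 523 at 10 weeks. Every rat within WOS was above every rat outside it, and the log2 fold change was 1.04 (SE 0.18, adjusted p = 0.00262), with 0.82 in the 8 rats (adjusted p = 0.0308). *Ackr3* had 546, 704 and 857 against 363, 502 and 671, with 4 of 6 rats at 6 weeks above all rats at 10 weeks. Its log2 fold change was 0.51 (SE 0.16, adjusted p = 0.0489), which fell to 0.27 in the 8 rats (adjusted p = 0.301). The call of *Ackr3* was kept in 3 of 13 fits without a rat. *Cxcl12* had 542, 736.5 and 813 against 536, 727 and 798, with a log2 fold change of -0.01 (95% confidence interval -0.28 to 0.26, adjusted p = 0.954).

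The other 7 chemokine receptors were not called, with log2 fold changes from -1.33 to 0.58. The lowest of these belonged to *Cxcr6*, the receptor of CXCL16, with 3, 6.5 and 52 at 6 weeks and 14, 27 and 34 at 10 weeks (log2 fold change -1.33, SE 0.47, adjusted p = 0.0716). The value of 52 was that of rat 80, while the other 5 rats at 6 weeks were under every rat at 10 weeks. Leaving out rat 80 gave a log2 fold change of -1.81 (adjusted p = 0.00171), and the 8 rats gave -1.78 (adjusted p = 0.00317). Each of the other 12 fits without a rat did not pass, with adjusted p up to 0.148. *Ccr7*, a receptor of T cells and mature dendritic cells, was at 0 in at least 1 rat, with a range of 0 to 32 at 6 weeks and 8 to 29 at 10 weeks.

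Of the CXC chemokines that draw neutrophils through CXCR2, *Cxcl3* was called, and *Cxcl1*, *Cxcl2* and *Cxcl6* were not. *Cxcl3* (ENSRNOG00000028043) had 3894, 4238.5 and 4615 at 6 weeks against 2477, 2955 and 3670 at 10 weeks, without overlap (log2 fold change 0.49, SE 0.11, adjusted p = 0.0103), and had 0.51 in the 8 rats (adjusted p = 0.036). *Cxcl1* had 21444, 36183 and 46477 against 28307, 37028 and 70694 (log2 fold change -0.19, 95% confidence interval -0.69 to 0.30, adjusted p = 0.596). *Cxcl2* had 10676, 16758.5 and 21243 against 15747, 19001 and 45693 (log2 fold change -0.39, 95% confidence interval -0.90 to 0.13, adjusted p = 0.29). In both of these genes the ages overlapped. *Cxcl6* had a log2 fold change of 0.24 (adjusted p = 0.343). Reads of these close relatives could be shared by the counting, and none of the 87 genes shared all of its values with another gene of the table. Of the neutrophil markers, the sum of *S100a8* and *Ncf1* was 69 to 107 at 6 weeks and 123 to 250 at 10 weeks, *Ncf1* being called higher at 10 weeks (log2 fold change -0.95, adjusted p = 0.0145). Their part in these values was not tested.

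*Cxcl14*, a chemokine made by epithelial cells and fibroblasts, had 229, 240.5 and 352 at 6 weeks against 342, 562 and 782 at 10 weeks. The ages overlapped in 1 rat on each side, rat 71 at 352 and rat 81 at 342. The log2 fold change of *Cxcl14* (ENSRNOG00000011984) was -1.06 (SE 0.21, adjusted p = 0.00498), and -1.33 in the 8 rats (adjusted p = 0.00702). *Cxcl16*, the membrane-bound ligand of CXCR6, had 2440, 2817 and 3224 against 3153, 3560 and 4318 (log2 fold change -0.37, SE 0.12, adjusted p = 0.049). The ages overlapped, with 4 of 6 rats at 6 weeks under every rat at 10 weeks, and the call was kept in 1 of 13 fits without a rat, with adjusted p up to 0.0972. In the 8 rats the log2 fold change of *Cxcl16* was -0.36 and did not pass (adjusted p = 0.0768). Its span overlaps that of *Zmynd15*, which had a log2 fold change of -0.52 (adjusted p = 0.0177), and no source used here states whether the counting took account of strand. *Cxcl13*, the B cell chemokine, had 3, 17 and 29 against 13, 61 and 132, with a log2 fold change of -1.82 (SE 0.64, adjusted p = 0.0697). It passed in the 8 rats (log2 fold change -2.80, adjusted p = 0.035) and without rat 83 (-2.11, adjusted p = 0.0407), and in none of the other 12 fits without a rat, where adjusted p reached 0.153. The sum of 4 B cell markers was 9 to 120 at 6 weeks and 2 to 115 at 10 weeks.

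The CC chemokines draw monocytes, eosinophils and lymphocytes. Of 12, 2 (16.7%) were higher at 6 weeks and 0 at 10 weeks, where 8.71% and 7.39% of all genes were. Their median log2 fold change was 0.23, with a range of -0.59 to 1.15, and 5 of the 12 had a mean under 20. *Ccl2* (ENSRNOG00000007159), the main monocyte attractant, had 6361, 8349 and 14618 at 6 weeks against 2705, 5123 and 7997 at 10 weeks. Rat 86 was far above the rest, and 4 of 6 rats at 6 weeks exceeded every rat at 10 weeks. Its log2 fold change came to 0.93 (SE 0.28, adjusted p = 0.0388), and to 0.80 in the 8 rats (adjusted p = 0.119). The call was kept in 5 of 13 fits without a rat, and the adjusted p was 0.0692 without rat 86. *Ccl7*, the gene next to *Ccl2*, had a log2 fold change of 0.19 (95% confidence interval -0.18 to 0.57, adjusted p = 0.474). Next in the same array, *Ccl11*, which draws eosinophils through CCR3, had one of -0.59 (adjusted p = 0.235).

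*Ccl27*, a chemokine of epithelial surfaces, had few counts, with 9, 12 and 24 at 6 weeks against 4, 8 and 10 at 10 weeks (log2 fold change 0.74, SE 0.24, adjusted p = 0.0493). In the 8 rats it had 0.26 (adjusted p = 0.246), and the call was kept in 2 of 13 fits without a rat. Its span overlaps that of *Il11ra1*, which was also called, so both values are uncertain. *Ccl20*, the ligand of CCR6, had 28, 101 and 140 against 26, 51 and 190 (log2 fold change 0.68, adjusted p = 0.329), and passed in the 8 rats (1.32, adjusted p = 0.0126) and in 0 of 13 fits without a rat. *Ccl21*, which leads cells with CCR7 to lymph nodes, had 521, 697.5 and 1040 against 415, 1143 and 1395 (log2 fold change -0.38, adjusted p = 0.353).

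The IL-1 family includes the ligands IL-1 alpha, IL-1 beta, IL-18, IL-33 and IL-36, their receptors, and natural antagonists. Of 15 genes, 1 (6.67%) was higher at 6 weeks and 2 (13.3%) at 10 weeks, where 8.71% and 7.39% of all genes were. *Il1rn* (ENSRNOG00000005871) encodes the antagonist that occupies the IL-1 receptor without signalling. Its lowest, median and highest normalized counts were 1713, 1898.5 and 2358 at 6 weeks against 3197, 4247 and 5165 at 10 weeks. The ages did not overlap, and the log2 fold change was -1.05 (SE 0.13, adjusted p = 0.000328), with -1.03 in the 8 rats (adjusted p = 0.00542). The span of *Il1rn* overlaps that of *Il36b*, which was not analysed here. The agonists overlapped between the ages. *Il1a* had 161, 282.5 and 351 against 152, 213 and 345 (log2 fold change 0.31, 95% confidence interval -0.20 to 0.81, adjusted p = 0.393). *Il1b* had 290, 368.5 and 489 against 283, 419 and 729 (log2 fold change -0.14, 95% confidence interval -0.60 to 0.32, adjusted p = 0.677). Leaving the antagonist aside, the signalling receptor *Il1r1* had a log2 fold change of 0.16 (adjusted p = 0.631) and the decoy receptor *Il1r2* one of 0.45 (adjusted p = 0.305).

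*Il1rapl1*, a relative of the IL-1 receptor accessory protein known from synapses, had 14, 22 and 41 at 6 weeks against 44, 62 and 80 at 10 weeks. The highest rat at 6 weeks and the lowest at 10 weeks came close without overlapping, and the log2 fold change was -1.36 (SE 0.23, adjusted p = 0.00186), with -1.38 in the 8 rats (adjusted p = 0.0227). The accessory protein gene *Il1rap* itself had 437, 478.5 and 559 against 504, 591 and 792 (log2 fold change -0.36, SE 0.13, adjusted p = 0.0696), and in the 8 rats -0.46 (adjusted p = 0.0458). It passed in 1 of 13 fits, without rat 78 (adjusted p = 0.0492), with adjusted p up to 0.144 in the others.

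**Figure D3:**
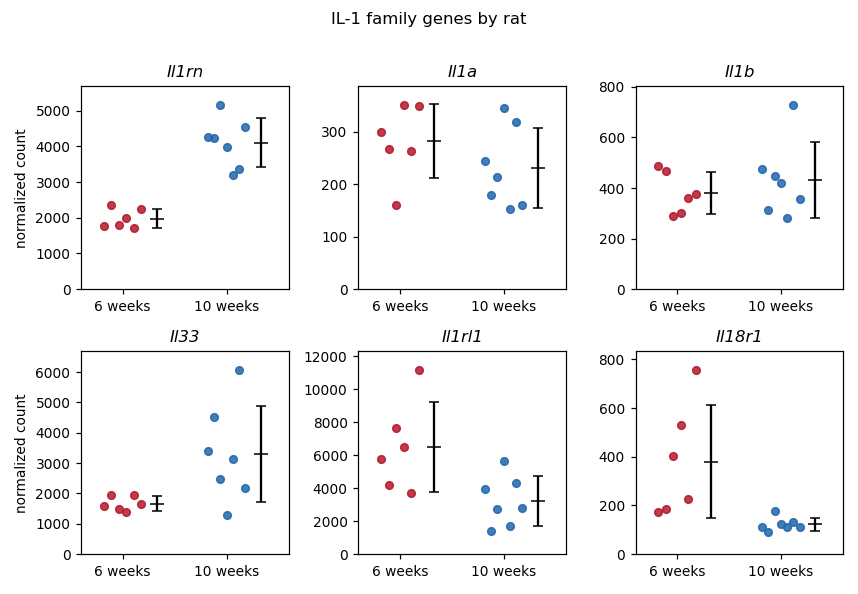
Normalized count (y axis, linear from 0) in each of 6 rats at 6 weeks (red points) and 7 rats at 10 weeks (blue points) for IL-1 family genes, with the mean and SD of each age as black bars. *Il1rn* does not overlap between the ages, *Il1a* and *Il1b* overlap over most of their range, *Il18r1* has its highest rat at 757, and *Il33* spreads from 1277 to 6076 at 10 weeks.

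The receptor for IL-33 is encoded by *Il1rl1*, and those for IL-18 by *Il18r1* and *Il18rap*. These genes form a run with *Il1r2*, *Il1r1* and *Il1rl2* on chromosome 9. *Il18r1* (ENSRNOG00000015027) had 175, 314 and 757 at 6 weeks against 93, 112 and 176 at 10 weeks. Of the 6 rats within WOS, 5 exceeded every rat outside it, and rats 75, 80 and 86 were the highest, at 402 or more. It had a log2 fold change of 1.43 (SE 0.33, adjusted p = 0.0119), and 1.29 in the 8 rats (adjusted p = 0.0639). *Il1rl1* had 3711, 6131 and 11167 against 1401, 2809 and 5667 and did not pass (log2 fold change 1.06, SE 0.35, adjusted p = 0.0535). It passed in 2 of 13 fits without a rat, those without rat 81 (adjusted p = 0.0258) or rat 85 (adjusted p = 0.049), while the adjusted p of the others reached 0.0972, and in the 8 rats it had 0.97 (adjusted p = 0.136). *Il18rap* had a log2 fold change of 0.95 (adjusted p = 0.098), and 0.91 in the 8 rats (adjusted p = 0.0746). It passed in 1 of 13 fits, without rat 81 (adjusted p = 0.039), and its adjusted p was up to 0.17 in the others. *Il1rl2* had a log2 fold change of 0.42 (adjusted p = 0.309), so that with *Il1r2* and *Il1r1* the values of the run were all above 0, with 1 of the genes called.

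Their ligands were not called. *Il33*, an alarm signal stored in nuclei of epithelial and endothelial cells, had 1387, 1615 and 1955 at 6 weeks against 1277, 3123 and 6076 at 10 weeks (log2 fold change -0.84, SE 0.29, adjusted p = 0.0666). Rat 81 held the lowest value of all, and the other 6 rats at 10 weeks exceeded every rat at 6 weeks. Leaving out rat 81 gave a log2 fold change of -1.04 (adjusted p = 0.00944), and the 8 rats gave -1.09 (adjusted p = 0.0313). It passed in 1 of 13 fits without a rat, and the adjusted p of the others reached 0.125. *Il18* had 112, 183 and 370 against 94, 254 and 424 (log2 fold change -0.35, adjusted p = 0.525). *Il18bp*, which captures IL-18, had a log2 fold change of 0.07 (95% confidence interval -0.20 to 0.34, adjusted p = 0.728).

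Mast cells are known to carry the IL-33 receptor, and mast cell markers moved with age. Of 7 markers, 6 were higher at 6 weeks and 1, *Kit*, was higher at 10 weeks, and *Hdc* and *Kit* kept their calls in 5 and 4 of 13 fits without a rat. The protease gene *Cpa3* was at 200 to 587 at 6 weeks and at 9 to 116 at 10 weeks, and *Ms4a2*, a chain of the IgE receptor, at 16 to 65 and 0 to 9. The tryptase genes *Tpsab1* and *Tpsb2*, *Ms4a2* and *Hdc* were at 0 in at least 1 rat at 10 weeks. Most of the summed level of the 7 markers given above was *Kit*, which epithelial cells of the gland also express. The part of mast cells in the values of *Il1rl1*, *Il18r1* and the other genes was not tested.

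The IL-6 family signals through the shared chain gp130, encoded by *Il6st*. Of its 7 genes, 2 (28.6%) were higher at 6 weeks, where 8.71% of all genes were. They were the ligand *Il11* and its receptor chain *Il11ra1*, and the value of *Il11ra1* is uncertain because its span overlaps that of *Ccl27*. *Il11* had 46, 63.5 and 77 at 6 weeks against 25, 33 and 48 at 10 weeks, with 5 of 6 rats at 6 weeks above all rats at 10 weeks (log2 fold change 0.78, SE 0.17, adjusted p = 0.00896). *Il11ra1* had 89, 128 and 193 against 46, 71 and 111, with 4 of 6 rats above all at 10 weeks (log2 fold change 0.77, SE 0.22, adjusted p = 0.0338). In the 8 rats the values were 0.61 (adjusted p = 0.06) and 0.86 (adjusted p = 0.0504), and *Il11ra1* kept its call in 5 of 13 fits without a rat. IL-11 acts on fibroblasts and other stromal cells. Of 6 fibroblast markers, 3 were higher at 6 weeks, with no marker of this list at 0 and the summed levels given above. Most of that sum was *Col1a1* and *Col3a1*, genes of collagen chains, which with *Lum* were the markers called. *Pdgfra*, *Dcn* and *Fbln1* were not called, with log2 fold changes of 0.13, 0.57 and -0.24. The part of fibroblasts in these values was not tested.

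The other 5 genes of the IL-6 family were not called. *Il6* had 2361, 3210 and 5129 at 6 weeks against 2736, 3777 and 6693 at 10 weeks (log2 fold change -0.29, 95% confidence interval -0.76 to 0.18, adjusted p = 0.389). *Il6st* had 7203, 9270 and 10044 against 8128, 9956 and 11902 (log2 fold change -0.14, adjusted p = 0.452). *Il6r*, the IL-6 receptor chain, had a log2 fold change of 0.01 with a 95% confidence interval of -0.23 to 0.25 (adjusted p = 0.963).

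The next group held 11 genes of the interleukins that share the common gamma chain, and of the IL-3, IL-4 and IL-13 receptors. Of these, 0 were higher at 6 weeks and 2 (18.2%) at 10 weeks, where 8.71% and 7.39% of all genes were. Both encode receptors of lymphocytes. *Il7r*, the IL-7 receptor chain on which lymphocyte survival depends, had 33, 65.5 and 97 at 6 weeks against 87, 113 and 164 at 10 weeks. All but 1 rat of each age lay outside the range of the other age, and the log2 fold change was -0.91 (SE 0.23, adjusted p = 0.0195), with -1.30 in the 8 rats (adjusted p = 0.0146). *Il21r*, the receptor of a T cell cytokine, had 10, 21.5 and 49 against 39, 52 and 122 (log2 fold change -1.29, SE 0.34, adjusted p = 0.0229). Rat 78 was the highest, and without rat 84 the adjusted p was 0.0549. In the 8 rats the log2 fold change of *Il21r* was -0.82 (adjusted p = 0.0882). Its neighbour *Il4r*, which serves IL-4 and IL-13, had a log2 fold change of 0.01 (95% confidence interval -0.41 to 0.44).

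The shared chain *Il2rg* had 219, 349.5 and 472 at 6 weeks against 229, 340 and 407 at 10 weeks (log2 fold change 0.08, 95% confidence interval -0.33 to 0.50, adjusted p = 0.794). The ligand *Il7* had 30, 58.5 and 100 against 6, 41 and 49, with 5 of 6 rats at 6 weeks above all rats at 10 weeks (log2 fold change 0.79, SE 0.43, adjusted p = 0.225). *Il15ra*, the IL-15 receptor chain, had 75, 78.5 and 119 against 55, 69 and 78 (log2 fold change 0.37, SE 0.13, adjusted p = 0.077), and 0.27 in the 8 rats (adjusted p = 0.16). Leukocyte markers gave no call in 5 pan-leukocyte genes, *Ptprc* among them, with sums of 796 to 1523 at 6 weeks and 880 to 1722 at 10 weeks. The 3 T cell markers in the table, *Cd4*, *Lck* and *Cd247*, were also without a call, with sums of 108 to 183 and 121 to 264, and markers such as *Cd3e* were not analysed here. Of 3 natural killer cell markers, *Klrk1* was higher at 10 weeks (log2 fold change -0.95, adjusted p = 0.0477), and the sums were 24 to 71 and 34 to 79. *Klrk1* kept its call in 5 of 13 fits without a rat and did not pass in the 8 rats (adjusted p = 0.136). *Gzmb* and *Prf1* were not called, with log2 fold changes of 0.27 and 0.15. Among the remaining lists, 1 of 3 dendritic cell markers was higher at 10 weeks (sums of 333 to 636 and 389 to 564). Of 4 B cell markers, *Cd79b* was higher at 6 weeks. Its counts were low, with means of 7.17 and 1.14, and it kept its call in 7 of 13 fits without a rat. No call was made in 6 endothelial markers (5918 to 10121 and 5480 to 8810), and 2 of 4 adipocyte markers were higher at 6 weeks (1474 to 2387 and 1373 to 2628). The part of these cell types in the values was not tested.

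In the IL-12 family, which steers T cells and natural killer cells, *Il12rb2* had 61, 135.5 and 180 at 6 weeks against 135, 208 and 276 at 10 weeks. Of 7 rats at 10 weeks, 6 exceeded every rat at 6 weeks, and rat 81, the exception, was at 135. This amounted to a log2 fold change of -0.83 (SE 0.24, adjusted p = 0.0361), with -1.23 in the 8 rats (adjusted p = 0.0187), and the call was kept in 4 of 13 fits without a rat. *Il23a*, the specific subunit of IL-23, had a log2 fold change of 0.24 (adjusted p = 0.554), and in the 8 rats of 0.56 (adjusted p = 0.0253). Over the 13 fits without a rat its adjusted p ranged from 0.0483, without rat 81, to 0.726.

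The IL-17 family acts on epithelium. Its 7 genes held 1 (14.3%) higher at 6 weeks and 2 (28.6%) higher at 10 weeks, where 8.71% and 7.39% of all genes were. IL-17B is a ligand of the receptor encoded by *Il17rb*, and *Il17ra* encodes the chain shared by most receptors of the family. *Il17b* had 14, 29.5 and 35 at 6 weeks against 4, 9 and 30 at 10 weeks, with rat 83 at 30 and the other rats at 10 weeks at 14 or less (log2 fold change 1.36, SE 0.37, adjusted p = 0.0274). The ligand and its receptor differed in opposite directions. *Il17rb* had 34, 49 and 58 against 50, 72 and 83 (log2 fold change -0.53, SE 0.17, adjusted p = 0.0469). *Il17ra* had 722, 868 and 1031 against 994, 1086 and 1308 (log2 fold change -0.38, SE 0.12, adjusted p = 0.0473). The ages overlapped in all of these genes, with 4 of 7 rats at 10 weeks above every rat at 6 weeks for *Il17rb* and 5 of 7 for *Il17ra*. The span of *Il17rb* overlaps those of *Actr8* and *Chdh*, whose log2 fold changes were 0.37 and -0.36. In the 8 rats the log2 fold changes of *Il17b*, *Il17rb* and *Il17ra* were 1.43, -0.58 and -0.37, each with an adjusted p under 0.05. In fits without a rat the calls were kept in 8, 4 and 3 of 13. *Il17b* was lost without rat 70, 71, 74, 84 or 87, with an adjusted p of at most 0.0599. *Il17rc*, *Il17rd* and *Il17re* had log2 fold changes of 0.01, 0.28 and 0.13.

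**Figure D4:**
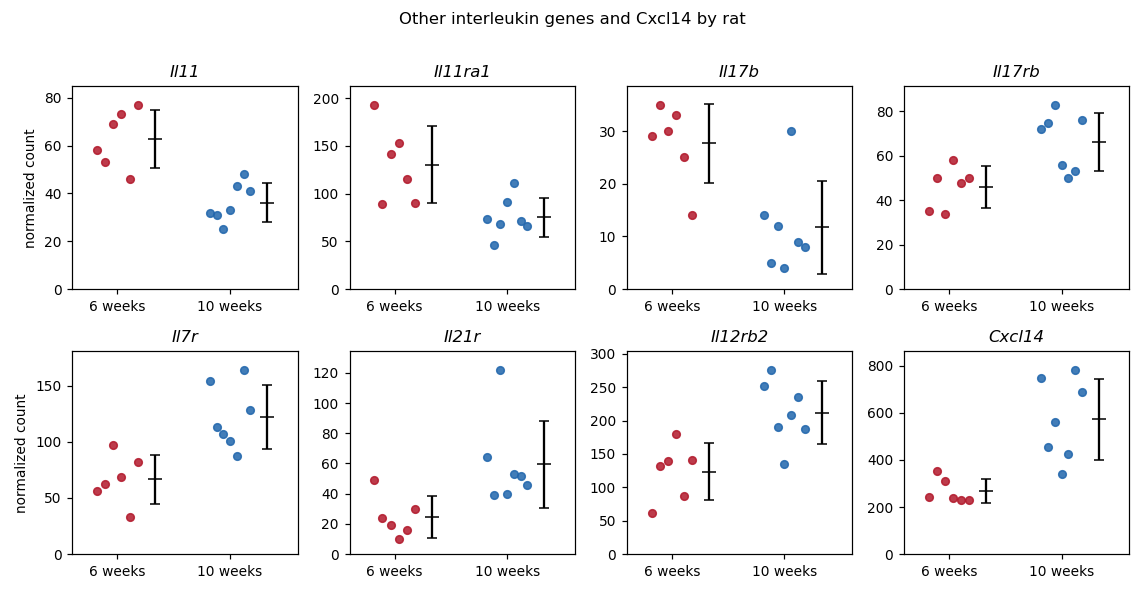
Normalized count (y axis, linear from 0) in each of 6 rats at 6 weeks (red points) and 7 rats at 10 weeks (blue points) for further genes with a call, with the mean and SD of each age as black bars. *Il11*, *Il11ra1* and *Il17b* sit higher at 6 weeks and *Il17rb*, *Il7r*, *Il21r*, *Il12rb2* and *Cxcl14* higher at 10 weeks, and in every panel some rats of the ages overlap.

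The IL-10 family, which limits inflammation and, through IL-20 and IL-22, acts on epithelium, held no call among 8 genes and 6 of these had a mean under 20. *Il10rb*, the shared receptor chain, had 212, 216 and 261 at 6 weeks against 160, 227 and 274 at 10 weeks (log2 fold change 0.02, 95% confidence interval -0.27 to 0.31, adjusted p = 0.933). *Il10* itself had 14, 27 and 69 against 15, 29 and 38. The other 3 genes, *Il16*, *Il34* and *Il4i1*, were not called either. *Il16*, a ligand of CD4, had 58, 92 and 163 against 67, 107 and 128 (log2 fold change -0.10, 95% confidence interval -0.61 to 0.40, adjusted p = 0.796). *Il34*, a ligand of the CSF1 receptor, had a log2 fold change of -0.19 (adjusted p = 0.54).

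A list of 68 other genes of cytokine and chemokine signalling, 61 of them in the table, placed these values in their pathway. Of the 61, 3 were higher at 6 weeks, where 8.71% of all genes were, and 7 at 10 weeks, where 7.39% of all genes were. Their median log2 fold change was -0.11. *Csf2*, the cytokine GM-CSF, had 42, 48.5 and 60 at 6 weeks against 5, 11 and 27 at 10 weeks, without overlap (log2 fold change 1.97, SE 0.26, adjusted p = 0.00049). *Stat2*, described above, was also among those higher at 6 weeks. *Lif*, a cytokine of the IL-6 family, had 5440, 5890 and 7022 against 9812, 11338 and 22864 and so was higher at 10 weeks in every rat (log2 fold change -1.05, SE 0.18, adjusted p = 0.00254). The others were *Nfkb1* (log2 fold change -0.50, adjusted p = 0.00779), *Irak2* of the IL-1 receptor pathway (-0.70, adjusted p = 0.00862), *Stat6* of IL-4 signalling (-0.45, adjusted p = 0.00812), *Stat3*, *Socs5* and *Socs7*. *Stat3* kept its call in 0 of 13 fits without a rat. *Csf1*, the macrophage growth factor, had a log2 fold change of 0.20 (adjusted p = 0.427) and *Myd88*, the adaptor of IL-1 receptors, one of 0.23 (adjusted p = 0.259).

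Of the 21 called genes, 11 kept their call in all 13 fits that left out 1 rat, namely *Cxcl3*, *Cxcl9*, *Cxcl10*, *Cxcl11*, *Cxcl14*, *Cxcr4*, *Il1rn*, *Il1rapl1*, *Il18r1*, *Il11* and *Il7r*. The other 10 were lost in at least 1 fit, with adjusted p of at most 0.109. Without rat 70, without rat 74 and without rat 87 the same 9 calls were lost, those of *Ccl2*, *Ccl27*, *Cxcl16*, *Ackr3*, *Il11ra1*, *Il12rb2*, *Il17b*, *Il17ra* and *Il17rb*. The number of genes higher at 6 weeks ranged from 7 to 13 over these fits, with 7 without rat 70, 74 or 87. The number higher at 10 weeks ranged from 4 to 9, with 4 without rat 84 and 5 without rat 70, 71, 72, 74 or 87. In the 8 rats, 9 genes were higher at 6 weeks, 6 of them among the 12, and 11 were higher at 10 weeks, 7 of them among the 9. The shares of all genes called, 8.71% and 7.39%, belong to the fit with all 13 rats. They were not worked out for these other fits, so the counts here cannot be set against all genes.

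**Figure D5:**
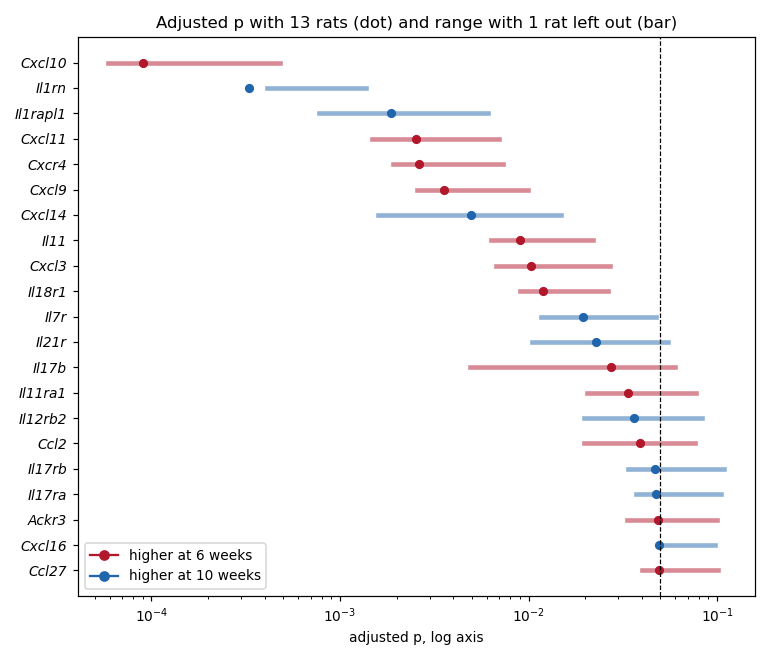
Adjusted p (x axis, log scale) of the 21 called genes (rows) with all 13 rats (dots) and its range over the 13 fits that each leave out 1 rat (bars), with red for genes higher at 6 weeks, blue for genes higher at 10 weeks and a dashed line at 0.05. Bars of 11 genes stay left of the line, and those of the other 10 cross it or end on its right.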

How the data were processed

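Gene expression was measured by RNA-seq in mammary epithelial cells, in 6 rats aged 6 weeks and 7 aged 10 weeks, each with a library of its own. Per the submitters' processing notes, the authors used RSEM 1.2.22 and named the build rn5, with edgeR and DESeq2 for their own comparison. The annotation and the use of strand in counting are not given in the sources used here. The authors deposited estimated counts scaled per library and rounded to whole numbers, so the unit is taken as a score, and no count model was run. All 13 columns were used. The deposited columns of the authors' own comparison (log2 fold changes, p-values, scores) and one on nuclear or cytoplasmic location were not used.

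For all 14790 genes with a mean of at least 1, log2(value + 1) was fitted with limma 3.58.1 in R 4.3.3, with no covariate. Two-sided p-values were adjusted by the Benjamini-Hochberg method over all genes, and 0.05 was the threshold. The fit was tested on simulated data. The p-values measure the spread between rats of 1 library each, and precision is limited by the number of rats and by the coarse low counts. Raw depth is unknown. All 87 symbols matched the RefSeq annotation of GRCr8, which gave neighbours, overlaps and promoters and no coordinates of the counts. Genes were named if called, if the ages did not overlap or, in a role group without such a gene, if the mean was highest. Others were named for their role or as neighbours, with their values known, and 1 gene of the signalling list is not reported here. The genes, role groups, marker and signalling lists were chosen with earlier results of these data known. Python 3.11.15 with pandas 2.3.3 and matplotlib 3.10.9 made summaries and plots. The set of 8 rats was split off at the largest gap on the first component of the variation within ages. Alternatives were a pseudocount of 0.1, 3 scalings, minimums of 10, limma-trend, sample quality weights, that component as a term, the 8 rats alone and each rat left out.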

Additional observations from a re-analysis of the deposited data

Results flagged for a closer look

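Within each age, the highest and lowest rats of the 23 named genes were set against the others of that age by Dixon's gap, which chance passes in about 1 of 20 groups of values. Of 46 groups, 4 had such a rat. *Ccl2* was at 14618 in rat 86 at 6 weeks, against 6361 to 8894 in the other 5 rats. *Cxcl10* was at 1124 in rat 75 at 6 weeks, against 1659 to 1862 in the others, and remained above all rats at 10 weeks. *Il17b* was at 30 in rat 83 at 10 weeks, against 4 to 14 in the others. *Il21r* was at 122 in rat 78 at 10 weeks, against 39 to 64 in the others. These are 4 different rats.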

How the results depend on the processing

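No paired analysis was possible because the rat numbers are not shared between the ages. Of the 23 named genes, 9 kept their direction and their side of the threshold in each of the 23 other settings that included them: *Cxcl3*, *Cxcl9*, *Cxcl10*, *Cxcl11*, *Cxcl14*, *Cxcr4*, *Il1rn*, *Il1rapl1* and *Il7r*. The setting that asked for at least 10 in every rat did not include *Cxcl11*, *Ccl27* or *Il17b*, whose lowest values were 8, 4 and 4. Over settings other than leaving out a rat, values kept direction and side in 203 cases, lost the call in 23 and reversed in 1, *Il10rb* with median-ratio scaling (-0.00059, adjusted p = 0.998). Without a rat, 212 kept both, 83 lost the call and 4 reversed: *Il10rb* at -0.057, -0.023 and -0.021 without rats 83, 86 and 87, and *Il16* at 0.038 without rat 84. Over these fits, *Il10rb* ranged from -0.057 to 0.071 and *Il16* from -0.26 to 0.038. Of the 87 genes, 5 were higher at 10 weeks with library size scaling and 15 with sample quality weights, against 9. Of the signalling list, 17 were higher at 10 weeks with sample quality weights and 12 when the first residual component was added as a term, against 7. The causes were not tested. With 1 rat left out, 7 to 13 of the 87 genes were higher at 6 weeks and 4 to 9 at 10 weeks, and 3 to 4 and 5 to 9 of the signalling list. No share over all genes was worked out for any of these settings. *Ackr3*, *Ccl27*, *Cxcl16*, *Il12rb2*, *Il17ra* and *Il17rb*, with adjusted p near 0.05, lost their calls with library size scaling. The 7 genes with an unadjusted p under 0.05 and no call passed in some other settings, fits without a rat included. *Il33* and *Il1rl1* passed in 6 settings, *Il1rap* in 5, *Cxcl13* in 4, *Cxcr6* in 3, and *Il15ra* and *Il18rap* in 1 each. Steps of more than 1 between low counts limit what can be seen in the 18 genes with a mean under 20.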
